A study of Arabidopsis thaliana with 48 samples.

Results

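The nuclear photosystem and antenna genes of Arabidopsis thaliana encode the light-harvesting proteins of photosystem I (LHCA) and photosystem II (LHCB) and the subunits of photosystem I (PSA) and photosystem II (PSB) that are made outside the chloroplast. They were taken by locus identifier from both deposited tables, which held all of them: 6 LHCA, 14 LHCB, 12 PSA and 10 PSB genes, 42 of 32548 loci. RNA-seq of whole seedlings on MS plates was measured in 48 libraries, 2 per group. The study compared mutants and transgenic lines of INO80, the ATPase of a chromatin remodelling complex, with wild type in long days (LD, 16 h of light, seedlings of 11 days) and short days (SD, 8 h of light, 14 days). Set 1 held repeats 1 and 2 of 9 genotypes in LD and SD (36 libraries), and set 2 held repeats 3 and 4 of 6 of the genotypes in SD (12 libraries), for which the labels give no age.

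The mutants were labelled ino80(-/-), arp5(-/-), nfrkb1(-/-);nfrkb2(-/-);nfrkb3(-/-) (nfrkb1/2/3), uch1(-/-);uch2(-/-) (uch1/2) and atx4(-/-);atx5(-/-);jmj24(-/-) (atx4/5;jmj24). The transgenic lines, all carrying the ino80 mutation as well, were INO80-FL(ino80) with the full-length protein (INO80FL), INO80-(1-550 aa)(ino80) with its N-terminal stretch (INO80N) and INO80-(335-1540 aa)(ino80) with its C-terminal stretch (INO80C). Wild type, labelled Col-0, was grown for each set and day length, and set 2 lacked arp5, INO80N and INO80C. The labels name neither the promoters of the transgenes nor the mutant alleles. They do not say whether the 2 libraries of a group came from separate batches of plants. The p-values thus rest on the spread between libraries, pooled over the groups of a set and drawn towards that of genes of like level.

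Light-harvesting proteins bind chlorophyll and pass excitation energy to the photosystem cores. LHCB1, LHCB2 and LHCB3 form the trimers of the major photosystem II antenna. LHCB4, LHCB5 and LHCB6, also called CP29, CP26 and CP24, are monomeric links between the trimers and the core. LHCA1 to LHCA4 form the belt of photosystem I. Their genes are in the nucleus, are among the most active genes of green leaves, and are known to respond to light, to the circadian clock and to signals from the chloroplast.

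Several antenna genes are near-identical copies, and the 50-base reads of this study cannot always tell them apart. The clearest case is shown by a stretch of 50 coding bases, bases 703 to 752 of the coding sequence, which LHCB1.1, LHCB1.2 and LHCB1.3 on chromosome 1 share without a difference; capitals in the LHCB1.4 and LHCB1.5 sequences, both on chromosome 2, mark bases that differ from it (RefSeq annotation, build TAIR10.1, coding strand).
LHCB1.1, LHCB1.2 and LHCB1.3: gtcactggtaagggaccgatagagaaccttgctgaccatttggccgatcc
LHCB1.4: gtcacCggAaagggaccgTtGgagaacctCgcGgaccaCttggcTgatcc
LHCB1.5: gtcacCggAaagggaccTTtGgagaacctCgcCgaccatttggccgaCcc
LHCB1.4 and LHCB1.5 each differed from the shared stretch at 8 of 50 bases. Over the exons, the share of 50-base words that also occur elsewhere in the genome was 20.5% for LHCB1.1, 10.6% for LHCB1.2, 17.0% for LHCB1.3, 13.7% for LHCB1.4, 20.2% for LHCB2.1, 28.2% for LHCB2.2 and 10.2% for LHCA2. It was 0.0% for LHCB2.3, whose coding sequence was 85.5% identical to LHCB2.1, while LHCB2.1 and LHCB2.2 were 96.6% identical. How reads with several matches were counted is not given in the sources used here, so the split between LHCB1.1, LHCB1.2 and LHCB1.3, and between LHCB2.1 and LHCB2.2, is uncertain, and sums over the copies are given beside them.

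LHCB1.5 (AT2G34420, chromosome 2, bases 14522524 to 14523568, minus strand) was listed at 0 in all 48 libraries. It is the only one of the 42 genes that was not tested. Its exons lie wholly under a long non-coding RNA gene on the other strand (AT2G08665, bases 14522522 to 14523568), which was also at 0 in 48 libraries. Of 334 protein-coding loci whose exons lie wholly under the exons of 1 gene on the other strand, 318 (95.2%) were at 0 in all libraries, against 1993 of 27110 other protein-coding loci (7.4%). The 0 of LHCB1.5 cannot be told apart from a locus left uncounted because of the overlap. Exons of several other members overlap a neighbour in part, among them PSAG over 61.4% of its exonic bases, PSAH1 over 53.3%, LHCB2.3 over 40.6% and PSAE1 over 34.1%.

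The promoters of the LHCB2 genes and of LHCB4.3 are shown because these genes stood at the 2 ends of the SD comparisons. Each window holds the 300 bases before the annotated start (TAIR10.1, 5′ to 3′ on the gene's strand), with capitals for matches to GATAAG (I-box), CACGTG (G-box), AAAATATCT (evening element), AAAAATCT (a CCA1-binding sequence) and CCAATC (a sequence bound by GLK factors, which contains CCAAT), searched on both strands.
LHCB2.1, chr2:1824481-1824780, minus strand: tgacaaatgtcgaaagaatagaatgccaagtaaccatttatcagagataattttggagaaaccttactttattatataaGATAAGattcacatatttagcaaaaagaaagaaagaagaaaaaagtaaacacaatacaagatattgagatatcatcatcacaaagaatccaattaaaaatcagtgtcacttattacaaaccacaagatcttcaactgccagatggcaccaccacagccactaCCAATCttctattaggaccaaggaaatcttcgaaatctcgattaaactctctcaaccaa
LHCB2.2, chr2:1800473-1800772, minus strand: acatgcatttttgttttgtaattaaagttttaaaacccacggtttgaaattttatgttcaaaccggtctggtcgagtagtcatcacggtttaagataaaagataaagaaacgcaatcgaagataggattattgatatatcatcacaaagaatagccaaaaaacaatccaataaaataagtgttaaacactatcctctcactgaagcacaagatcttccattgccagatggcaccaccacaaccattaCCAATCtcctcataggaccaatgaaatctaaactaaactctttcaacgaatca
LHCB2.3, chr3:10255606-10255905, plus strand: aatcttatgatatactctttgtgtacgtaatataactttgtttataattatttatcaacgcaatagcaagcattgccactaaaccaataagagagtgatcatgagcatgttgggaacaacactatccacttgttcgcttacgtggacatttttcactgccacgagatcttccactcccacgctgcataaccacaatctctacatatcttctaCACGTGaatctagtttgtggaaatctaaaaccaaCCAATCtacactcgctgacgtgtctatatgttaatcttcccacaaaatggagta
LHCB4.3, chr2:16745328-16745627, plus strand: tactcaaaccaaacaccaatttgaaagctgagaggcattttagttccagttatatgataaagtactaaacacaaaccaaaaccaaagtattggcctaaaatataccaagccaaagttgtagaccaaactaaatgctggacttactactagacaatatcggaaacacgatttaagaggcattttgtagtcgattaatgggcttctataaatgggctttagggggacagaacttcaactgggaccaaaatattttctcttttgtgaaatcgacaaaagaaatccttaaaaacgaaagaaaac
CCAATC stood 53 bases before the start in LHCB2.2, 54 bases in LHCB2.3 and 59 bases in LHCB2.1, which also held GATAAG 221 bases before the start, and the LHCB4.3 window matched none of the 5 sequences. That lack is not particular to LHCB4.3: windows of members that fell in ino80, among them LHCB1.2, PSAH1 and PSBO2, matched none either. Among the 42 members, CCAATC was found in 12 windows (28.6%), 7 of them LHCB, 3 LHCA, 1 PSA and 1 PSB, against 12.2% of 27438 protein-coding promoters of the same length. CACGTG was found in 8 (19.0%, against 7.1%), GATAAG in 9 (21.4%, against 14.5%), AAAAATCT in 5 (11.9%, against 7.9%), AAAATATCT in 1 (2.4%, against 2.8%) and CCAAT in 28 (66.7%, against 51.9%). These matches describe letters, not binding.

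In wild type in LD, the mean normalised read count per kilobase of exon differed widely between members. LHCB1.3 was highest at 312827 per kilobase, before LHCA4 at 132491, PSBR at 126717 and LHCB1.2 at 119459. The lowest were LHCA6 at 2485 and LHCA5 at 2269, the antenna proteins that link photosystem I to the NDH complex, and LHCB4.3 at 500.5, an isoform of CP29 also named LHCB8. The other CP29 genes stood at 60517 (LHCB4.1) and 50879 (LHCB4.2) per kilobase.

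The members took a large share of every library. In LD the share of all members was 8.53% and 8.54% in ino80, 9.37% to 9.73% in nfrkb1/2/3, 9.44% to 9.73% in uch1/2 and 11.19% to 11.85% in the libraries labelled arp5, against 12.96% to 13.05% in wild type. In SD of set 1 it was 7.91% to 7.94% in ino80 and 6.83% to 7.62% in nfrkb1/2/3, against 9.26% to 9.54% in wild type, and in set 2 it was 7.69% to 7.96% in ino80 and 6.59% to 6.72% in nfrkb1/2/3, against 9.7% to 9.79% in wild type. The plot of class shares gives these shares by class.

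**Figure D1:**
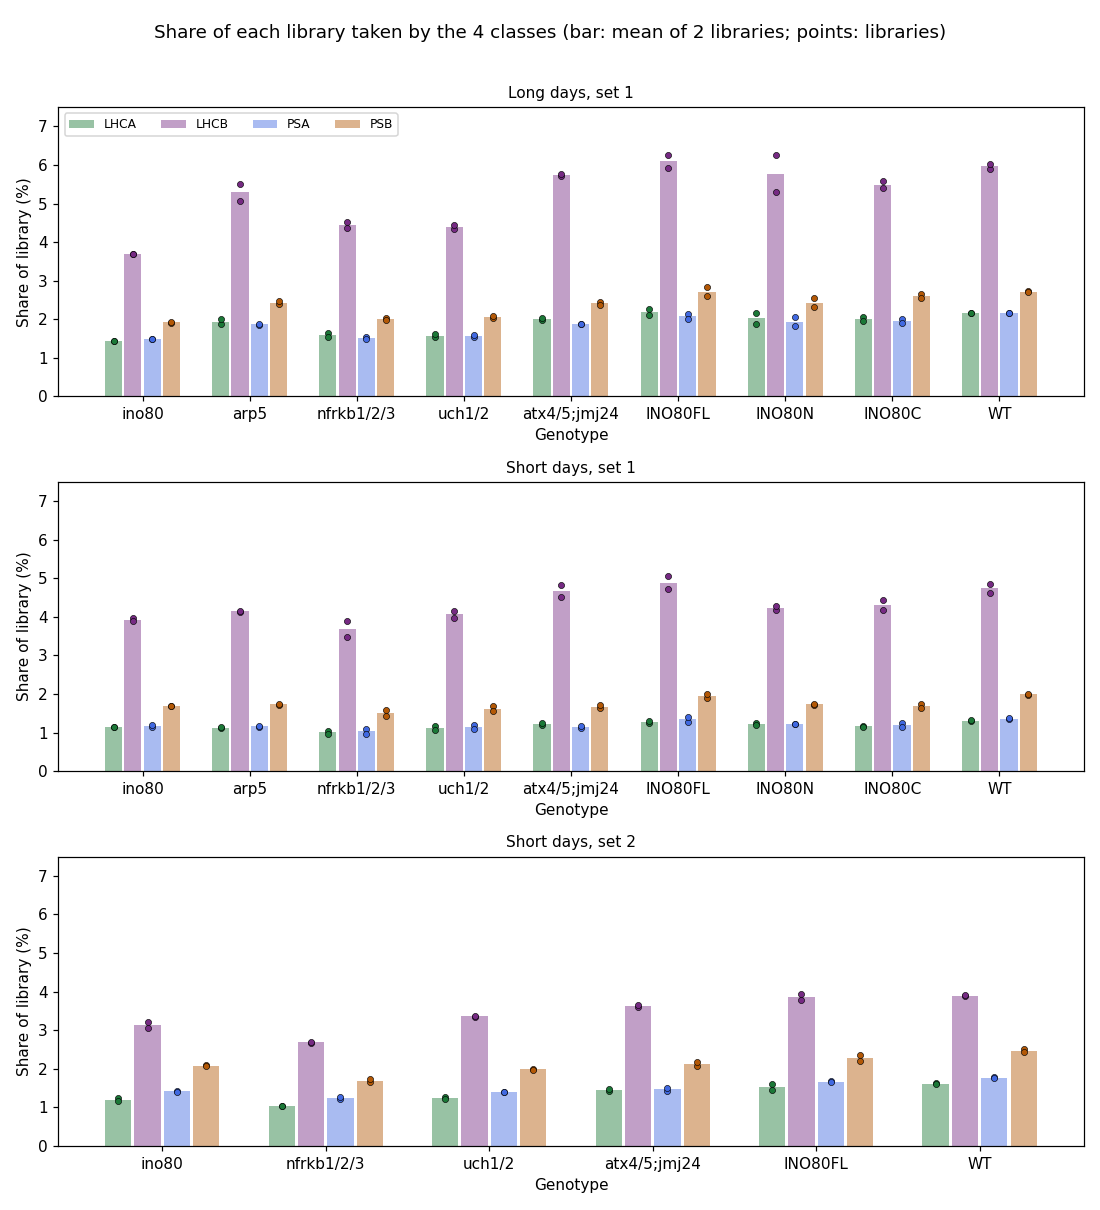
Share of each library (percent, linear axis from 0) taken by the LHCA, LHCB, PSA and PSB genes in each genotype; bars are means of 2 libraries and points are the libraries, with long days of set 1 above, short days of set 1 in the middle and short days of set 2 below. In long days the LHCB genes took 3.68% to 3.7% in ino80, against 5.9% to 6.02% in wild type.

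Library totals were 18867187 to 22653356 normalised reads in set 1 and 20080952 to 22921363 in set 2, and the 2 libraries of a group correlated at r = 0.994 to 0.995 in set 1 and 0.994 to 0.996 in set 2. INO80 itself was at 783 and 941 in ino80 in LD, against 1579 and 1582 in wild type, and at 949 and 1033 in ino80 in SD of set 1, against 2215 and 2222 in wild type. ARP5 went against its label, at 5649 and 5822 in the libraries labelled arp5 in LD, against 293 and 334 in wild type (log2 fold change 4.19, SE 0.089, adjusted p = 2.47e-20). All 6 leaf mesophyll markers, the Rubisco small subunits, Rubisco activase and a carbonic anhydrase, were detected in every group. Markers of dry seed (storage proteins and oleosins) and of roots also differed between groups, and their values are given beside the results.

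In long days, ino80 seedlings had lower transcript levels of 40 of the 41 tested members than wild type, and LHCB4.3 was the exception. Of all 25638 genes tested, 15.5% were lower and 13.2% higher in ino80. The classes moved by similar amounts: the median log2 fold change was -0.77 for LHCB, -0.72 for LHCA, -0.69 for PSA and -0.67 for PSB, beside 0 over all genes. These are bulk libraries, in which fewer green cells and less RNA per cell cannot be told apart.

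The 3 largest changes were in trimer genes of the major antenna. LHCB1.2 (AT1G29910, chromosome 1, bases 10472280 to 10473502, minus strand) was at 53720.1 and 54121 normalised reads in the ino80 libraries, against 144288 and 147908 in wild type (log2 fold change -1.44, SE 0.12, adjusted p = 1.13e-08). LHCB2.3 (AT3G27690, chromosome 3, bases 10255906 to 10257489, plus strand) was at 21488 and 18707 in ino80, against 46649.6 and 46662 in wild type (log2 fold change -1.22, SE 0.12, adjusted p = 9.44e-08). LHCB2.2 (AT2G05070, chromosome 2, bases 1799234 to 1800472, minus strand) was at 28013 and 25964 in ino80, against 57269.7 and 53520.3 in wild type (log2 fold change -1.04, SE 0.12, adjusted p = 7.11e-07). The libraries of the groups did not overlap for any of these genes. They were named for the size of their change, so this is not further support. LHCB1.1 (-0.80), LHCB1.3 (-0.85), LHCB1.4 (-0.77), LHCB2.1 (-0.80) and LHCB3 (-0.61) also fell, on the log2 scale, but for LHCB1.1 the difference was 0.05 after quantile normalization. This scaling sets values of the same rank equal across libraries, which can shrink change in the most abundant transcripts. Whether it did so here was not tested.

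Summing the copies removed the uncertain split. The LHCB1 sum gave log2 fold change -0.94, SE 0.26, adjusted p = 0.00912, and the LHCB2 sum gave log2 fold change -0.99, SE 0.14, adjusted p = 8.43e-06, for ino80 over wild type in LD. Both sums passed the test. LHCB2.3, which shares no 50-base word with another locus, changed on its own, although a neighbouring gene overlaps part of its exons.

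Of the monomeric antenna genes, all but LHCB4.3 fell. LHCB4.1 was at 50977 and 48698 in ino80, against 83016 and 85948 in wild type (log2 fold change -0.76, SE 0.10, adjusted p = 2.34e-06). LHCB4.2 (-0.70), LHCB5 (-0.69) and LHCB6 (-0.68) fell as well. LHCB4.3, the third CP29 gene (AT2G40100, chromosome 2, bases 16745628 to 16747424, plus strand), was at 859.7 and 861 in ino80, against 634 and 688 in wild type, and did not pass the test (log2 fold change 0.38, SE 0.21, adjusted p = 0.186).

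Among the photosystem I antenna genes, LHCA1 (AT3G54890, chromosome 3, bases 20339504 to 20341176, minus strand) was at 78333 and 76294 in ino80, against 132185 and 133106 in wild type (log2 fold change -0.78, SE 0.11, adjusted p = 1.35e-05). LHCA5 had the smallest change of the class (-0.41), and all 6 LHCA genes passed the test. In the photosystem I core, PSAE2 (AT2G20260, chromosome 2, bases 8736734 to 8737767, plus strand), a stromal subunit at the ferredoxin docking site, was at 4935 and 4968 in ino80, against 9017 and 8803 in wild type (log2 fold change -0.85, SE 0.077, adjusted p = 2.79e-08), and its paralogue PSAE1 at 13555 and 13976 in ino80, against 22079.6 and 22296 in wild type (-0.69). All 12 PSA genes fell, with log2 fold changes no further from 0 than that of PSAE2.

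In photosystem II, PSBQ2 (AT4G05180, chromosome 4, bases 2671523 to 2673243, minus strand), an extrinsic subunit of the oxygen-evolving complex, was at 24881 and 25489 in ino80, against 45040.4 and 44265 in wild type (log2 fold change -0.83, SE 0.084, adjusted p = 1.50e-07). PSBS, which senses the lumen pH for energy-dependent quenching, was at 22762 and 23313 in ino80, against 33391 and 32839 in wild type (log2 fold change -0.52, SE 0.088, adjusted p = 8.15e-05). All 10 PSB genes fell. The count of 40 was the same when any 1 of the 4 libraries was left out, and it was 29 after quantile normalization.

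**Figure D2:**
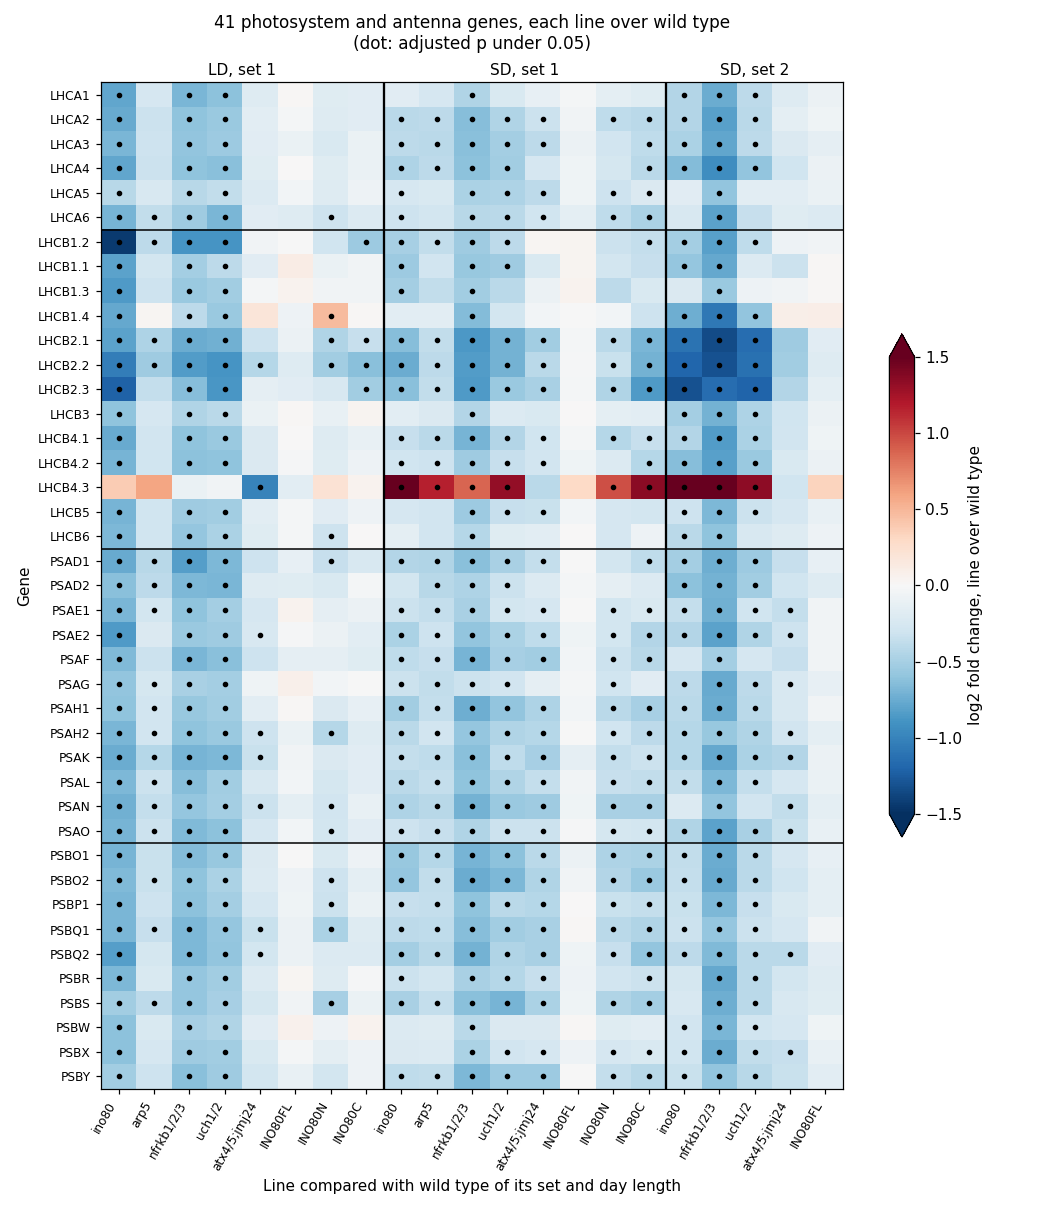
Log2 fold change of 41 members (rows, by class) in each line over wild type of the same set and day length (columns); blue is lower and red is higher in the line, the colour scale is capped at -1.5 and 1.5, and a dot marks an adjusted p under 0.05. In ino80 in short days LHCB4.3 is red where most other rows are blue, at 2.21 in ino80 of set 1 and 2.34 in ino80 of set 2.

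Leaf markers moved with the members in LD. Of the 6, 5 were lower in ino80, and their summed level was 592164 to 635658 in ino80, against 904518 to 912756 in wild type. The summed level of the 15 root markers was 7751 to 10186 in ino80, against 7576 to 8862 in wild type, with 1 lower. Of the 9 seed markers, 8 were tested and 5 were higher; their sum was 764 to 2300 in ino80, against 2 to 46 in wild type, with 2 markers below 1 in both ino80 libraries. The part of these tissues in the members' levels was not tested.

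The nfrkb1/2/3 and uch1/2 seedlings, mutant in genes named after subunits of the human INO80 complex, also had lower levels of 40 of 41 members in LD, with LHCB4.3 again the gene not called. Lower calls covered 14.3% of all genes in nfrkb1/2/3 and 15.7% in uch1/2. In nfrkb1/2/3 the class medians were -0.60 for LHCA, -0.58 for LHCB, -0.62 for PSA and -0.61 for PSB, and in uch1/2 they were -0.59 for LHCA, -0.55 for LHCB, -0.54 for PSA and -0.52 for PSB. These comparisons and that of ino80 share the wild-type libraries, so their likeness is not independent evidence.

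In nfrkb1/2/3, LHCB1.2 was at 81309 and 77199, against 144288 and 147908 in wild type (log2 fold change -0.88, SE 0.12, adjusted p = 1.03e-05), and PSAD1, the ferredoxin-binding subunit, at 51585 and 47943, against 87888 and 87916 in wild type (log2 fold change -0.82, SE 0.11, adjusted p = 4.78e-06). The leading LHCA and PSB genes were LHCA1 (-0.68) and PSBQ1 (-0.68). In uch1/2, LHCB1.2 was at 76170.0 and 81842, against 144288 and 147908 in wild type (log2 fold change -0.89, SE 0.12, adjusted p = 9.14e-06), with LHCB2.2 (-0.89), LHCB2.3 (-0.88), LHCA6 (-0.68), PSAD2 (-0.68) and PSBQ2 (-0.59) next in their classes. The LHCB1 sum did not pass the test in nfrkb1/2/3 (log2 fold change -0.59, SE 0.26, adjusted p = 0.104) or in uch1/2 (log2 fold change -0.56, SE 0.26, adjusted p = 0.117), while the LHCB2 sum did in both. The mean LHCB1 sum was 477542.9 in nfrkb1/2/3 (standard deviation 12153.2) and 487925.4 in uch1/2 (15965.8), against 720967.2 in wild type (22142.3). The SE of the test also draws on the spread of other genes of like level, so a sum not called was not shown to be unchanged. After quantile normalization the counts were 19 for nfrkb1/2/3 and 18 for uch1/2, and LHCB1.1 was at 0.10 in both. All 6 leaf markers were lower in each mutant, with a sum of 539389 to 579172 in nfrkb1/2/3 and 561973 to 616871 in uch1/2, against 904518 to 912756 in wild type; their part in the result was not tested.

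The LD libraries labelled arp5 had 17 of 41 members lower, against 6.26% of all genes lower and 3.64% higher, and a median log2 fold change of -0.31 over the members. LHCB2.2 was at 38087 and 38477, against 57269.7 and 53520.3 in wild type (log2 fold change -0.53, SE 0.12, adjusted p = 0.00506), and LHCB4.3 at 989 and 1006, against 634 and 688 in wild type (log2 fold change 0.59, SE 0.21, adjusted p = 0.0737). The count fell to between 1 and 5 when any 1 of the 4 libraries was left out, and it was 31 with genes of a mean of at least 10 only. In atx4/5;jmj24, which combines mutations in trithorax-type methyltransferase genes and a JmjC gene, 8 members were lower, against 7.41% of all genes: LHCB2.2, LHCB4.3, PSAE2, PSAH2, PSAK, PSAN, PSBQ1 and PSBQ2. LHCB4.3 was at 361 and 298 in atx4/5;jmj24, against 634 and 688 in wild type (log2 fold change -1.01, SE 0.21, adjusted p = 0.0018), a call that was lost with only these 2 groups in the fit (adjusted p = 0.0897). The atx4/5;jmj24 count was 1 to 3 when any 1 library was left out. Leaf markers summed to 641067 to 709924 in the libraries labelled arp5 (4 of 6 lower) and 663085 to 690509 in atx4/5;jmj24 (5 of 6 lower), against 904518 to 912756 in wild type. Their part was not tested.

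In short days most members were again lower in ino80, and LHCB4.3 was higher. In set 1, 32 members were lower and LHCB4.3 was the 1 higher, against 18.7% of all genes lower and 16.3% higher. In set 2, 33 were lower and LHCB4.3 was higher, against 7.21% of 24458 genes lower and 6.79% higher. The class medians in set 1 were -0.35 for LHCA, -0.34 for LHCB, -0.39 for PSA and -0.38 for PSB, and in set 2 they were -0.44 for LHCA, -0.51 for LHCB, -0.42 for PSA and -0.32 for PSB.

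LHCB4.3 had the largest log2 fold change of the members in both SD comparisons of ino80. In set 1 it was at 563 and 722 in ino80, against 156 and 120.0 in wild type (log2 fold change 2.21, SE 0.21, adjusted p = 2.93e-08), and in set 2 at 603 and 631 in ino80, against 99.8 and 147 in wild type (log2 fold change 2.34, SE 0.15, adjusted p = 3.43e-05). The lowest ino80 library stood above the highest wild-type library in both sets, for a gene named for its large change. None of its 50-base words occurs elsewhere in the genome and no other gene overlaps its exons. Under every alternative run for single genes, including each library left out in turn, it kept its direction and its call in ino80 in both sets. The alternative with seed markers as a covariate was run for counts of members only, not for single genes.

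LHCB4.3 was also higher in nfrkb1/2/3, uch1/2 and the libraries labelled arp5 in SD. In set 1 it was at 257 and 248 in nfrkb1/2/3 (0.88, adjusted p = 0.00219), at 373 and 318 in uch1/2 (1.32, adjusted p = 2.20e-05) and at 343 and 277 in the libraries labelled arp5 (1.16, adjusted p = 4.96e-04), against 156 and 120.0 in wild type. The call in nfrkb1/2/3 was lost without wild-type repeat 2 (0.69, adjusted p = 0.0534). In set 2 it was at 367 and 357 in nfrkb1/2/3 (1.57, adjusted p = 1.46e-04) and at 300.4 and 316 in uch1/2 (1.34, adjusted p = 6.57e-04), against 99.8 and 147 in wild type. It was not called in atx4/5;jmj24, at 95.3 and 113 in set 1 (-0.40, adjusted p = 0.167) and 99.3 and 97.4 in set 2 (-0.30, adjusted p = 0.351).

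**Figure D3:**
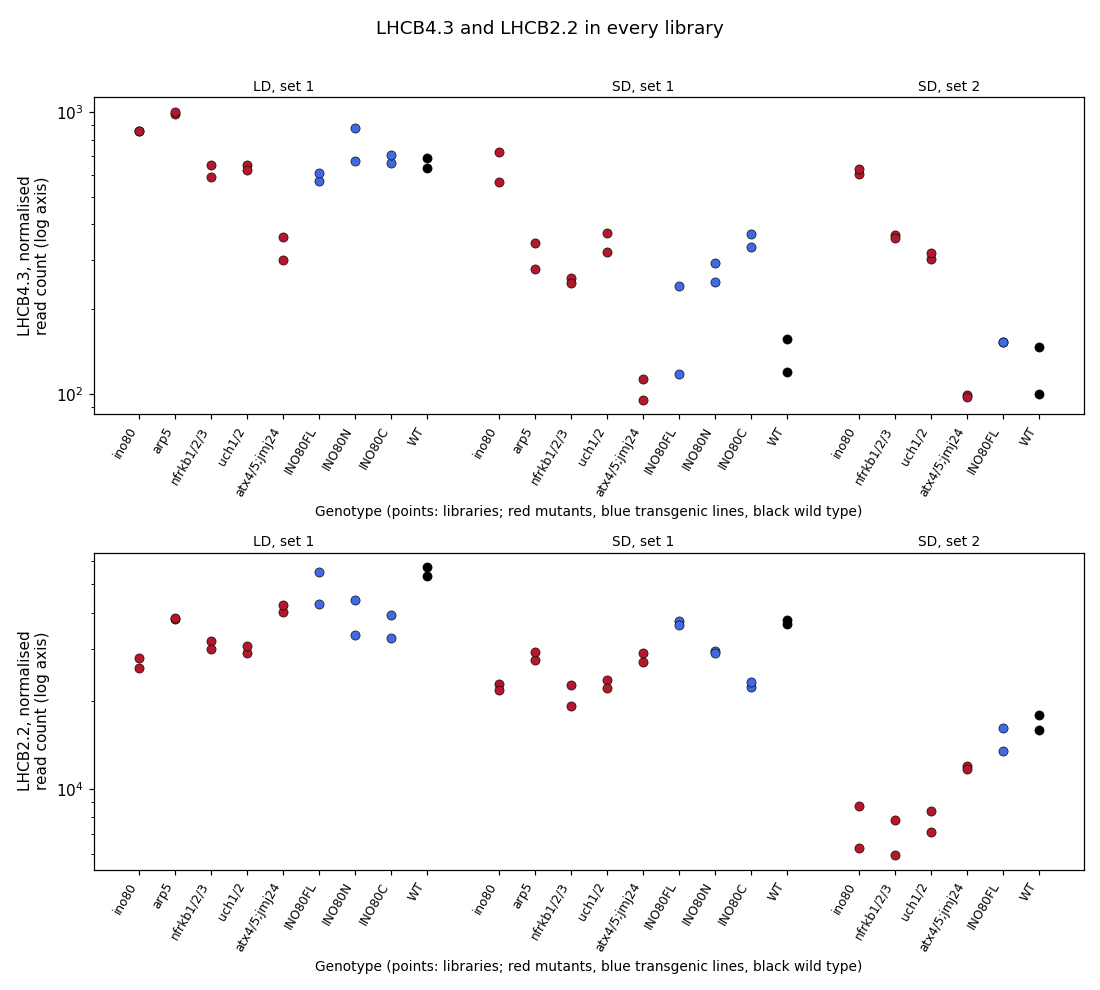
Normalised read count (log axis) of LHCB4.3 (top) and LHCB2.2 (bottom) in every library; red points are mutants, blue points transgenic lines and black points wild type, in long days of set 1, short days of set 1 and short days of set 2. In short days LHCB4.3 lies at 563 to 722 in ino80 of set 1 and at 603 to 631 in ino80 of set 2, above wild type at 120.0 to 156 and 99.8 to 147, while LHCB2.2 in ino80 lies below wild type in all 3 panels.

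The LHCB2 genes had the largest decreases. LHCB2.2 was at 22852 and 21684 in ino80 of set 1, against 36562 and 37857 in wild type (log2 fold change -0.74, SE 0.12, adjusted p = 3.78e-05), and at 8770.1 and 6279.8 in ino80 of set 2, against 17892 and 15933 in wild type (log2 fold change -1.19, SE 0.18, adjusted p = 0.00244). LHCB2.3 was at 17330.0 and 17271 in ino80 of set 1, against 26318 and 27058 in wild type (log2 fold change -0.63, SE 0.12, adjusted p = 2.78e-04), and at 2141 and 1525 in ino80 of set 2, against 4522 and 4428 in wild type (log2 fold change -1.31, SE 0.18, adjusted p = 0.00169). LHCB2.1 fell likewise (-0.64 in set 1, -1.11 in set 2). The LHCB2 sum gave -0.67 (adjusted p = 5.44e-04) in set 1 and -1.16 (adjusted p = 0.00325) in set 2, and the LHCB1 sum did not pass, at -0.50 (adjusted p = 0.152) in set 1 and -0.33 (adjusted p = 0.177) in set 2. The mean LHCB1 sum was 464681.6 in ino80 of set 1 (standard deviation 13885), against 656706.6 in wild type (40543.7). In set 2 it was 423334 in ino80 (10243.2), against 532067.8 in wild type (16267.9).

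The LHCB1 copies were not tested against each other, and their split is uncertain. LHCB1.2 was at 65581 and 63527 in ino80 of set 1, against 88949 and 94144 in wild type (log2 fold change -0.50, SE 0.12, adjusted p = 0.00251), and at 84483 and 78233 in ino80 of set 2, against 112997 and 117874 in wild type (log2 fold change -0.51, SE 0.090, adjusted p = 0.00608). LHCB1.1 fell in both sets (-0.55 and -0.57). LHCB1.3, the most abundant, was called in set 1 (-0.51, adjusted p = 0.041). That call was lost with each library left out (adjusted p = 0.0808 to 0.193), with equal library totals (0.0702), with no filter (0.0745), with a pseudocount of 4 (0.0681) and after quantile normalization, where the difference was 0. In set 2 LHCB1.3 was not called (-0.22, adjusted p = 0.288), and LHCB1.4 was called in set 2 (-0.73, adjusted p = 9.86e-04) and not in set 1 (-0.15, adjusted p = 0.426). The difference between the sets was not tested, because the tables were normalized apart.

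In the other classes, LHCA4 was at 73320.2 and 73108 in ino80 of set 1, against 97815 and 103897 in wild type (log2 fold change -0.46, SE 0.12, adjusted p = 0.00452), and at 72841 and 68789 in ino80 of set 2, against 108573 and 113527 in wild type (log2 fold change -0.65, SE 0.090, adjusted p = 0.00175). PSAH1, a subunit at the docking site of mobile LHCII on photosystem I, was at 8388 and 8415 in ino80 of set 1, against 12022 and 12030.4 in wild type (log2 fold change -0.52, SE 0.079, adjusted p = 2.10e-05), and PSAD2 at 17999.7 and 17209.5 in ino80 of set 2, against 27712 and 26167 in wild type (log2 fold change -0.61, SE 0.079, adjusted p = 0.00123). PSBO2, an isoform of the manganese-stabilising subunit, was at 18155 and 18163 in ino80 of set 1, against 26479 and 27879 in wild type (log2 fold change -0.58, SE 0.10, adjusted p = 8.50e-05), and PSBQ2 at 30342 and 30519 in ino80 of set 2, against 38978 and 41036 in wild type (log2 fold change -0.39, SE 0.066, adjusted p = 0.00427). The groups did not overlap for any of these genes. They were named for their large called changes, so this is not further support.

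Not called in ino80 of set 1 were LHCA1 (-0.17), LHCB1.4 (-0.15), LHCB3 (-0.15), LHCB5 (-0.25), LHCB6 (-0.15), PSAD2 (-0.28), PSBW (-0.20) and PSBX (-0.21). Not called in set 2 were LHCA5 (-0.17), LHCA6 (-0.24), LHCB1.3 (-0.22), PSAF (-0.25), PSAN (-0.21), PSBR (-0.26) and PSBS (-0.24). Of the 41 members, 25 were lower in ino80 in LD, in SD of set 1 and in SD of set 2. These comparisons share no library, although LD and SD of set 1 were fitted together. In nfrkb1/2/3 the number lower in all 3 was 40. The share of all genes lower in all 3 was not counted. It cannot exceed the lowest of the 3 single shares. The ino80 count of 33 calls in SD of set 1 was 19 when each library was scaled to the same total and 10 after quantile normalization. After quantile normalization 4400 of 25638 genes were higher and 3952 lower, so the members were called below the rate over all genes, taken over both directions. The members' median was then -0.07, beside 0 over all genes. In set 2 the ino80 count of 34 was 20 without wild-type repeat 3, 19 without wild-type repeat 4 and 18 without ino80 repeat 4, and 21 after quantile normalization.

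In nfrkb1/2/3, 40 members were lower in SD of set 1 (17.1% of all genes) and 40 in set 2 (14.2% of all genes), with LHCB4.3 the 1 higher in each (14.7% and 14.0% of all genes). LHCB2.1 was at 30807 and 25445 in set 1, against 49738 and 51818 in wild type (log2 fold change -0.86, SE 0.12, adjusted p = 5.16e-06), and at 8315 and 6405 in set 2, against 19801 and 17214 in wild type (log2 fold change -1.34, SE 0.19, adjusted p = 8.53e-04). LHCB1.4 was at 12961 and 12691 in nfrkb1/2/3 of set 2, against 26015 and 28092 in wild type (log2 fold change -1.08, SE 0.090, adjusted p = 7.82e-05), and LHCA4 at 57661 and 58877, against 108573 and 113527 in wild type (log2 fold change -0.93, SE 0.090, adjusted p = 1.47e-04). In uch1/2, 34 members were lower in set 1 (20.6% of all genes) and 33 in set 2 (7.37%), with LHCB4.3 higher in each (18.1% and 7.13%). LHCB2.3 in uch1/2 of set 2 was at 2219 and 1715, against 4522 and 4428 in wild type (log2 fold change -1.20, SE 0.18, adjusted p = 0.00261). Leaf markers summed to 412723 to 486998 in nfrkb1/2/3 (4 of 6 lower) and 424788 to 494792 in uch1/2 (3 of 6 lower) of set 1, against 638608 to 654910 in wild type. In set 2 they summed to 397509 to 452644 in nfrkb1/2/3 (6 of 6 lower) and 542559 to 589726 in uch1/2, against 607626 to 632881 in wild type. Root markers summed to 8588 to 9774 in nfrkb1/2/3 (13 of 15 higher) and 10607 to 12672 in uch1/2 (14 of 15 higher) of set 1, against 5380 to 5947 in wild type. In set 2 their sum was 8031 to 9454 in nfrkb1/2/3 (14 of 15 higher) and 6576 to 6863 in uch1/2 (12 of 15 higher), against 3495 to 3923 in wild type. Their part in the members' levels was not tested. The uch1/2 count of 34 calls in set 2 was 19 without wild-type repeat 3, 21 without wild-type repeat 4 and 19 without uch1/2 repeat 3. After quantile normalization the counts in set 1 were 21 for nfrkb1/2/3 and 14, 2 higher and 12 lower, for uch1/2. Over all genes 3976 were then higher and 3682 lower for nfrkb1/2/3, and 4667 and 4540 for uch1/2. The 14 calls of uch1/2 lay near that rate taken over both directions, but 12 of the 14 were lower.

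The libraries labelled arp5 had 28 members lower and LHCB4.3 higher in SD of set 1, against 8.87% and 7.31% of all genes. The count of 29 calls was 5 to 15 when any 1 of the 4 libraries was left out. In atx4/5;jmj24, 29 members were lower in set 1 (15.3% of all genes) and 9 in set 2 (2.29%). The set 1 count was 15 without wild-type repeat 2 and 14 without atx4/5;jmj24 repeat 1, and the set 2 count was 0 to 2 when any 1 library was left out. PSBY, a small photosystem II subunit, was called in set 1 (-0.54) and LHCB2.2 was not called in set 2 (-0.52, adjusted p = 0.151). After quantile normalization 2 calls, 1 in each direction, were left for the libraries labelled arp5 and 13, 2 higher and 11 lower, for atx4/5;jmj24 in set 1. Over all genes 1588 were then higher and 1526 lower in the libraries labelled arp5, and 3216 and 3121 in atx4/5;jmj24. Leaf markers summed to 498768 to 505228 in the libraries labelled arp5 (2 of 6 lower) and 479907 to 498846 in atx4/5;jmj24 (4 of 6 lower) of set 1, against 638608 to 654910 in wild type. The root markers of these groups summed to 7059 to 8245 in the libraries labelled arp5 (6 of 15 higher) and 8884 to 9489 in atx4/5;jmj24 (13 of 15 higher), against 5380 to 5947 in wild type. Seed markers summed to 1923 to 3384 in the libraries labelled arp5 and 1564 to 4449 in atx4/5;jmj24 of set 1, against 6 to 7 in wild type, and with that sum as a covariate the counts were 10 for the libraries labelled arp5 and 15 for atx4/5;jmj24.

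Markers differed in SD too. The leaf marker sum was 557417 to 574406 in ino80 of set 1, against 638608 to 654910 in wild type, with 2 of 6 lower, and 590235 to 619984 in ino80 of set 2, against 607626 to 632881 in wild type, with a median log2 fold change of -0.02 over the 6. The root marker sum was 7956 to 8946 in ino80 of set 1, against 5380 to 5947 in wild type, with 9 of 15 higher, and 5014 to 5741 in ino80 of set 2, against 3495 to 3923 in wild type, with 4 of 15 higher. The seed marker sum was 6 to 1402 in ino80 of set 1, against 6 to 7 in wild type, and 252 to 394 in ino80 of set 2, against 13 to 25 in wild type. With the seed marker sum as a covariate, an alternative chosen after seeing the data, the ino80 count in set 2 was 13. The part of roots and leaves in the members' levels was not tested.

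Whether the effect of a line differed between day lengths was tested as an interaction in set 1. For ino80, 7 members passed, all with a more positive effect in SD (3.51% of all genes): LHCB4.3, LHCB1.2, LHCB2.3, LHCB6, LHCA1, PSAE2 and PSBX. LHCB4.3 had a difference of log2 fold changes of 1.83, SE 0.29, adjusted p = 5.02e-04, and LHCB1.2 had a difference of 0.93, SE 0.17, adjusted p = 0.00193. LHCA1 was at 56356 and 56401 in ino80 in SD, against 62979 and 64178 in wild type, a difference that was not called (-0.17), and its interaction was 0.61 (adjusted p = 0.0218). The LHCA1 interaction was lost when any 1 of the 8 libraries was left out (adjusted p = 0.0526 to 0.0724). After quantile normalization it was 0.12 (adjusted p = 0.629). Those of PSAE2 (adjusted p = 0.055 to 0.127) and PSBX (adjusted p = 0.0644 to 0.159) were likewise lost without any 1 library. The count of 7 was 2 or 3 when any 1 of the 8 libraries was left out, 16 with genes of a mean of at least 10 only and 18 with equal library totals.

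In uch1/2 LHCB4.3 was the 1 member that passed (1.38, adjusted p = 0.00469; 4.71% of all genes were called in that direction), and 6 did with equal library totals. In INO80C, LHCB4.3 had a more positive effect in SD (1.3, adjusted p = 0.00538; 5.04% of all genes) and PSAH1, PSBS and PSBQ2 a more negative one (7.33% of all genes), a count of 4 that was 1 without either wild-type library of LD, either wild-type library of SD, INO80C repeat 1 of LD or INO80C repeat 2 of SD, and 1 with equal library totals. No member passed in limma for the libraries labelled arp5, nfrkb1/2/3, atx4/5;jmj24, INO80FL or INO80N. At an unadjusted p under 0.05 the numbers were 0, 1, 2, 0 and 3 in that order, and with voom weights 1 member passed for nfrkb1/2/3 and 0 for the others. With equal library totals 0 members passed for each. Over all genes, 2 were then more positive and 2 more negative for arp5, and 0 and 0 for INO80FL, so almost no gene passed for these lines. The numbers were 777 and 618 for nfrkb1/2/3, 1070 and 662 for atx4/5;jmj24 and 1022 and 779 for INO80N. Without wild-type repeat 1 of SD, 1 member passed for nfrkb1/2/3, and without INO80N repeat 2 of LD, 1 passed for INO80N.

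Within each genotype of set 1, some or most members were lower in SD than in LD. Age, day length and the hour of harvest, which the labels do not give, cannot be told apart here. CCA1, a morning-phased clock gene, was at 17229.6 and 17298 in wild type in SD of set 1, against 2127 and 2556 in wild type in LD, and at 34.9 and 53.3 in wild type of set 2, whose values are on their own scale; LHY, its close relative, was at 17701 and 18314 in SD, against 1342 and 1543 in LD of set 1, and at 9.43 and 9.48 in set 2. The part of clock phase in the members' levels was not tested.

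In wild type 34 of 41 members were lower in SD (19.3% of all genes), with a median log2 fold change of -0.61. LHCB4.3 was at 156 and 120.0 in SD, against 634 and 688 in LD (log2 fold change -2.26, SE 0.21, adjusted p = 1.03e-08). PSAD2 was at 20475 and 21792 in SD, against 48164 and 48071 in LD (log2 fold change -1.19, SE 0.12, adjusted p = 2.68e-08). LHCA1 was at 62979 and 64178 in SD, against 132185 and 133106 in LD (log2 fold change -1.06, SE 0.11, adjusted p = 8.83e-08) and PSBW was at 24817 and 26811 in SD, against 44755 and 44801 in LD (log2 fold change -0.80, SE 0.093, adjusted p = 3.96e-07). The most abundant antenna gene did not follow: LHCB1.3 was at 389989.7 and 425730.4 in SD, against 376615 and 392939.8 in LD (adjusted p = 0.791), and LHCB1.1 (-0.11), LHCB2.1 (-0.27), PSAH1 (-0.01), PSBS (-0.18), PSBO1 (-0.21) and LHCA5 (-0.20) were not called either.

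In ino80, 18 members were lower in SD (16.2% of all genes), with a median of -0.25. LHCB1.2 was at 65581 and 63527 in SD, against 53720.1 and 54121 in LD (log2 fold change 0.26, SE 0.12, adjusted p = 0.113), and LHCB4.3 at 563 and 722 in SD, against 859.7 and 861 in LD (log2 fold change -0.43, SE 0.21, adjusted p = 0.12). The number lower in SD was 35 in the libraries labelled arp5 (16.9% of all genes), 35 in nfrkb1/2/3 (17.2%), 32 in uch1/2 (15.4%), 39 in atx4/5;jmj24 (17.2%), 40 in INO80C (17.5%), 36 in INO80N (18.3%) and 35 in INO80FL (15.8%). The ino80 count was 29 with only the groups compared in the fit, and 21 calls, 3 of them higher, were made with equal library totals.

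**Figure D4:**
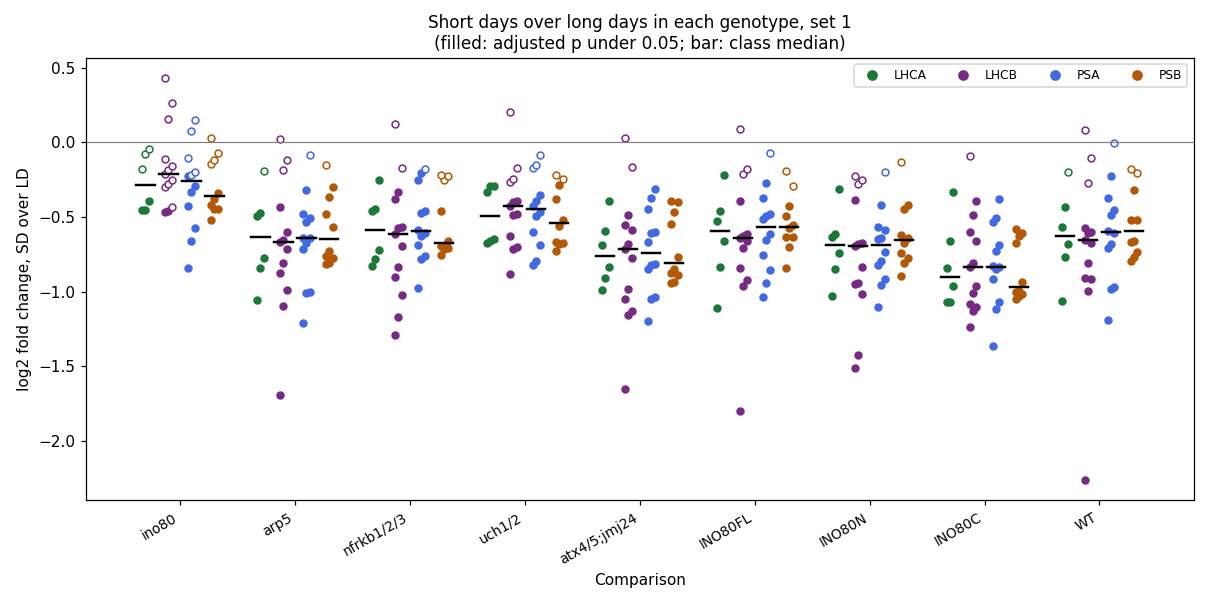
Log2 fold change of each member between short and long days within each genotype of set 1, by class (colours); filled points have an adjusted p under 0.05 and bars are class medians. The ino80 points lie nearest to 0, with a median of -0.25 over all members, beside -0.61 in wild type and -0.84 in INO80C.

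In LD all 3 transgenic lines had higher levels of most members than ino80. INO80FL had 40 of 41 members higher than ino80 (16.3% of all genes), INO80N 36 (13.7%) and INO80C 40 (11.9%), while 14.4% of all genes were lower in INO80FL and 8.86% in INO80C, and the members' medians were 0.66, 0.48 and 0.59 in that order. LHCB1.2 was at 152964 and 139161 in INO80FL (1.44), at 132535 and 106598 in INO80N (1.14) and at 104739 and 96370.3 in INO80C (0.90), against 53720.1 and 54121 in ino80. PSAE2 was at 9129 and 8527 in INO80FL (0.83), at 8795 and 7959 in INO80N (0.76) and at 8166 and 7785 in INO80C (0.69), against 4935 and 4968 in ino80. All libraries of the 3 lines lay above both ino80 libraries for these genes, which were named for their large changes. Leaf markers summed to 810917 to 897075 in INO80FL, 636984 to 753638 in INO80N and 790321 to 829244 in INO80C, against 592164 to 635658 in ino80, and their part was not tested.

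PSBS was lower in INO80N than in INO80C in the fit of all groups, and that call was lost with only the groups compared, after quantile normalization or without INO80N repeat 2. It was at 33807 and 30248 in INO80FL (0.47, adjusted p = 2.26e-04), at 31986 and 29709.6 in INO80C (0.42, adjusted p = 0.00166) and at 25472 and 21433 in INO80N (0.02, adjusted p = 0.927), against 22762 and 23313 in ino80. Set directly against INO80C, INO80N was lower for PSBS (log2 fold change -0.40, SE 0.088, adjusted p = 0.00232) and for LHCB6 (-0.31, adjusted p = 0.0323), where 9.92% of all genes were lower, and higher for LHCB1.4 (0.46, adjusted p = 0.0219), where 9.18% were higher. The count of 3 was 5 without INO80N repeat 1 and 1 without either INO80C library, and with equal library totals it was 5, of which 3 were higher. The other members not called between INO80N and ino80 were LHCA5 (0.21), LHCB4.3 (-0.16), PSBQ1 (0.21) and PSBY (0.25).

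Against wild type in LD, limma called 0 members in INO80FL (0.0390% of all genes higher, 0.0819% lower), with 0 at an unadjusted p under 0.05 and 0 with voom weights. INO80N had 12 members lower (13.1% of all genes) and LHCB1.4 higher (11.7% of all genes). LHCB1.4 was at 82723 and 56529.9 in INO80N, against 46927 and 51249 in wild type (log2 fold change 0.48, SE 0.14, adjusted p = 0.013). That call was lost without INO80N repeat 1 (0.21, adjusted p = 0.348), without wild-type repeat 1 (0.42, adjusted p = 0.108) and with only the groups compared (adjusted p = 0.24). INO80C had 4 members lower of 41, a smaller share than the 13.9% of all genes: LHCB2.2 was at 39370.1 and 32835, against 57269.7 and 53520.3 in wild type (log2 fold change -0.62, SE 0.12, adjusted p = 3.76e-04), and LHCB1.2 (-0.54), LHCB2.3 (-0.53) and LHCB2.1 (-0.35) fell too. LHCB2.1 was lost without wild-type repeat 1 (adjusted p = 0.175), without INO80C repeat 2 (adjusted p = 0.185) and with only the groups compared (adjusted p = 0.076). LHCB2.3 was lost without INO80C repeat 2 (adjusted p = 0.0513). With the copies summed the count was 1. The sums replace all 4 of these genes in that fit, so the count had to fall and cannot be set beside 4. The INO80N count of 13 was 4 without wild-type repeat 1, 7 without wild-type repeat 2, 23 without INO80N repeat 1, 4 without INO80N repeat 2 and 0 with only the groups compared in the fit. After quantile normalization it was 6, of which 3 were higher, while 3104 of all genes were higher and 3139 lower. The INO80C count was 2 without INO80C repeat 2, and the INO80N count over ino80 was 20 without INO80N repeat 1 and 8 with only the groups compared in the fit.

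**Figure D5:**
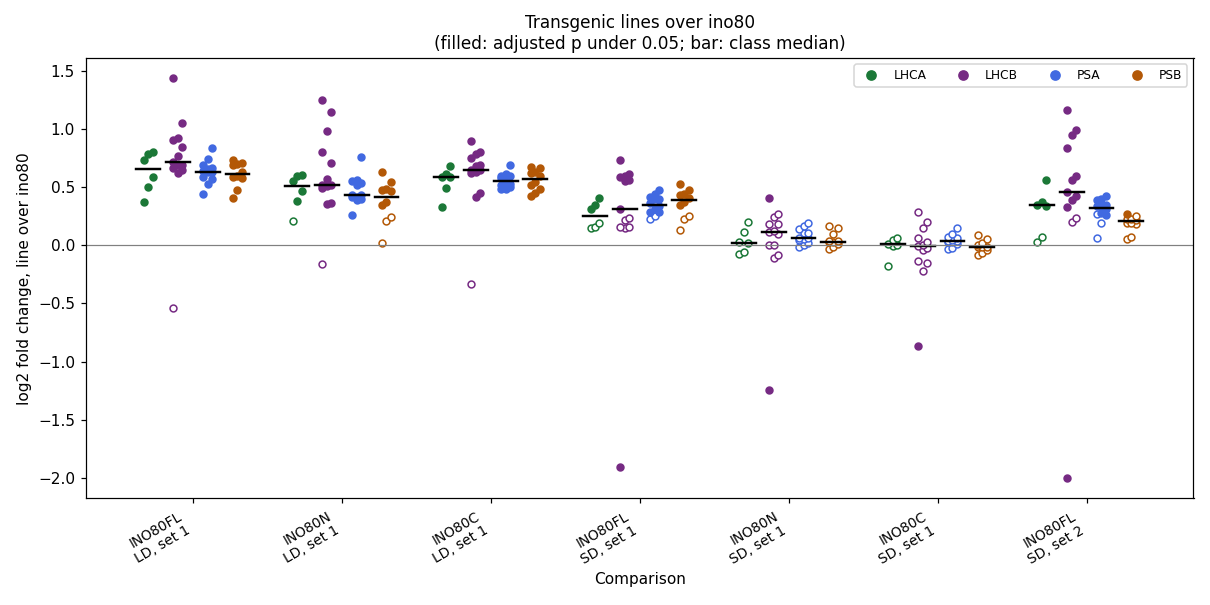
Log2 fold change of each member in the transgenic lines over ino80, by class (colours), in long days of set 1, short days of set 1 and short days of set 2; filled points have an adjusted p under 0.05 and bars are class medians. In short days of set 1 INO80FL has 27 members higher, INO80N 1 and INO80C 0, and LHCB4.3 lies lowest in each short-day column, at -1.91, -1.24, -0.86 and, in set 2, -2.00.

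In SD, INO80FL of set 1 had 27 members higher than ino80 (15.0% of all genes) and LHCB4.3 lower (12.2%), and in set 2 it had 24 higher (5.74%) and LHCB4.3 lower (5.18%). INO80N had LHCB2.2 higher (6.07% of all genes) and LHCB4.3 lower (6.55%), and INO80C had LHCB4.3 lower (3.45%) and, in limma, 0 higher, with 1 member in all at an unadjusted p under 0.05 and 1 with voom weights. LHCB2.2 was at 37432 and 36309 in INO80FL (0.73), at 29627 and 29210.2 in INO80N (0.40) and at 22332 and 23102 in INO80C (0.03, adjusted p = 0.956), against 22852 and 21684 in ino80. LHCB4.3 was at 118 and 242 in INO80FL (-1.91), at 249 and 292 in INO80N (-1.24) and at 333 and 369 in INO80C (-0.86, adjusted p = 0.0136), against 563 and 722 in ino80. In set 2, LHCB4.3 was at 153 and 153 in INO80FL, against 603 and 631 in ino80 (log2 fold change -2.00, SE 0.15, adjusted p = 8.61e-05).

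The same libraries set against wild type in SD gave 25 members lower and LHCB4.3 higher in INO80N (13.5% and 10.8% of all genes), and 30 lower and LHCB4.3 higher in INO80C (18.3% and 15.6%). Leaf markers summed to 491970 to 506004 in INO80N (3 of 6 lower) and 531331 to 599745 in INO80C (2 of 6 lower), against 638608 to 654910 in wild type. Root markers summed to 5583 to 5988 in INO80N (1 of 15 higher) and 8105 to 8194 in INO80C (9 of 15 higher), against 5380 to 5947 in wild type. In INO80FL their sum was 6947 to 8309 in set 1. In set 2 it was 4101 to 5000 in INO80FL, against 3495 to 3923 in wild type. The part of either tissue was not tested. In INO80FL limma called 0 in set 1 (0.0819% of all genes higher, 0.0468% lower) and in set 2 (0.0245% higher, 0.0286% lower), with 0 members in set 1 and 4 in set 2 at an unadjusted p under 0.05 and 0 with voom weights in both. Without INO80FL repeat 1, 1 member was called in set 1. The INO80N count of 26 was 11 without wild-type repeat 2, 12 without INO80N repeat 1 and 17 without INO80N repeat 2, and the INO80C count of 31 was 19 without wild-type repeat 2 and 15 without INO80C repeat 2. Over ino80, the INO80FL count of 28 in set 1 was 13 without INO80FL repeat 2 and 17 without ino80 repeat 1, and that of 25 in set 2 was 7 to 16 when any 1 of the 4 libraries was left out and 1, LHCB4.3, with only the groups compared in the fit. The INO80N calls were 1 when any 1 library was left out, and the INO80C call was lost without ino80 repeat 2 or INO80C repeat 1. Between INO80N and INO80C in SD, 1 member, LHCB2.3, was higher (0.40, adjusted p = 0.042; 3.96% of all genes), and it was lost when any 1 of the 4 libraries was left out.

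Whether the transgenic lines differed from ino80 by the same amount in both day lengths was then tested. In this interaction test, chosen after seeing the data, 11 members passed for INO80FL (3.61% of all genes in that direction), 16 for INO80N (3.51%) and 29 for INO80C (2.48%), all with a smaller or more negative difference in SD. PSAE2 had -0.57 for INO80N (adjusted p = 0.00273) and -0.65 for INO80C (adjusted p = 0.00279), and LHCA1 had -0.66 for INO80FL (adjusted p = 0.0136). The 3 tests share the ino80 libraries. The INO80FL count was 2 to 4 without INO80FL repeat 1 of LD, INO80FL repeat 1 of SD or any 1 ino80 library. The INO80N count was 7 without INO80N repeat 1 of LD and 8 to 10 without any 1 ino80 library. The INO80C count was 4 without INO80C repeat 1 of LD, 6 without INO80C repeat 2 of SD and 7 to 13 without any 1 ino80 library.

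The other lines were also set against ino80 in place of wild type; whether these differences changed with day length was not tested. In LD, 33 members were higher in the libraries labelled arp5 than in ino80 (6.76% of all genes higher, 5.29% lower), 3 in nfrkb1/2/3 (1.57% higher, 1.68% lower), 2 in uch1/2 (0.608% higher, 0.718% lower) and 38 in atx4/5;jmj24 (13.0% higher), where LHCB4.3 was lower (10.7%). LHCB1.2 was at 103119 and 120401 in the libraries labelled arp5, 81309 and 77199 in nfrkb1/2/3, 76170.0 and 81842 in uch1/2 and 142508 and 138889.6 in atx4/5;jmj24, against 53720.1 and 54121 in ino80, and was higher in each. In SD of set 1 LHCB4.3 was lower than in ino80 in all 4 lines, the 1 call in the libraries labelled arp5 (4.88% of all genes lower), nfrkb1/2/3 (0.647%) and uch1/2 (0.374%). In atx4/5;jmj24 (7.87%) LHCB1.2 was also higher (0.54; 7.20%). In set 2, nfrkb1/2/3 had 20 members lower than ino80 (3.56%), uch1/2 1 (0.0491%), and atx4/5;jmj24 7 higher (4.27%) and LHCB4.3 lower (4.74%).

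These counts moved when single libraries were left out. The arp5 count in LD was 7 to 21, the uch1/2 counts 0 in LD, in SD of set 1 and in set 2, and the nfrkb1/2/3 count in set 2 0 to 10 when any 1 of the 4 libraries was left out. The nfrkb1/2/3 count in LD was 1 without ino80 repeat 1 and 0 without ino80 repeat 2 or nfrkb1/2/3 repeat 1. In SD of set 1 the arp5 call was lost without arp5 repeat 2 or ino80 repeat 2, and the nfrkb1/2/3 call without ino80 repeat 2. The atx4/5;jmj24 count of 8 in set 2 was 2 to 5.

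Other photosynthesis genes, from lists chosen with earlier results known, were counted in the same fits for ino80 over wild type, where 15.5% of all genes were lower and 13.2% higher in LD, 18.7% and 16.3% in SD of set 1, and 7.21% and 6.79% in set 2. In LD, 12 of 14 electron transport genes were lower, 8 of 12 of chlorophyll synthesis, and all 7 of a list of antenna insertion genes, STN7, STN8 and TAP38. In that list STN7, the kinase of state transitions, had log2 fold change -0.60, SE 0.086, adjusted p = 1.11e-05. In SD of set 1 the numbers lower were 10 of 14, 10 of 12 and 7 of 7, and in set 2 they were 3 of 14 with 1 higher, 4 of 12 and 1 of 7. CAO, which makes chlorophyll b, fell in LD (log2 fold change -0.83, SE 0.12, adjusted p = 1.88e-05) and in set 2 (log2 fold change -0.98, SE 0.12, adjusted p = 0.00112). Of 9 LHC-like genes, 7 were lower and 2 higher in LD. LHCB7 fell (log2 fold change -0.98, SE 0.15, adjusted p = 3.32e-05) and ELIP2, an early light-induced protein, rose (log2 fold change 1.37, SE 0.19, adjusted p = 8.41e-06). In SD of set 1, 5 were lower and 2 higher, with ELIP2 at 1.17 (adjusted p = 4.83e-05), and in set 2, 1 was lower.

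GLK1 and GLK2, transcription factors that activate antenna genes, both fell in LD, while in SD of set 1 GLK1 rose and GLK2 fell. GLK1 was at 3137 and 3407 in ino80 in LD, against 6080.4 and 6370.5 in wild type (log2 fold change -0.93, SE 0.13, adjusted p = 5.83e-06), and at 5893 and 5909.8 in ino80 in SD of set 1, against 4525 and 4874 in wild type (log2 fold change 0.33, SE 0.13, adjusted p = 0.0442). Its interaction with day length was 1.26 (adjusted p = 1.63e-04). GLK2 was at 2166 and 2485 in ino80 in LD, against 3842 and 4252 in wild type (log2 fold change -0.80, SE 0.13, adjusted p = 7.44e-05), and at 4185 and 4205 in ino80 in SD of set 1, against 5475 and 5880.4 in wild type (log2 fold change -0.44, SE 0.13, adjusted p = 0.0133). Of the 9 greening regulators, 6 were lower in LD, 6 lower and GLK1 higher in SD of set 1, and 1 lower in set 2. Of 12 clock genes, 3 were lower and 2 higher in LD, 6 lower and 1 higher in SD of set 1, and 1 lower in set 2, so that the clock counts in LD and set 2 lay near the shares over all genes. CCA1 was at 1247 and 1357 in ino80 in LD, against 2127 and 2556 in wild type, and at 8758 and 8813 in ino80 in SD of set 1, against 17229.6 and 17298 in wild type. The part of these regulators in the members' levels was not tested.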

How the data were processed

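RNA-seq of Arabidopsis seedlings was measured in 48 libraries, as single-end 50-bp reads. The deposited values are a signal: read counts that the authors adjusted to a common library size in each table, with non-whole numbers, so no count model was fitted. Per the submitters' processing notes, HISAT2 2.2.0, edgeR and TAIR10 were used; the annotation, strand setting and treatment of reads with several matches are not given in the sources used here. The 2 tables were normalized apart, so tests stayed within a table.

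Values were transformed as log2(value + 1), after keeping genes with at least 1 in at least 2 libraries (25638 genes in set 1, 24458 in set 2), and tested with limma 3.58.1 in R 4.3.3. Limma drew the spread of each gene towards a trend over genes of like level. All libraries of a set were fitted together, and p-values were adjusted by Benjamini-Hochberg over all genes, with a threshold of 0.05; fold changes refer to log2(value + 1), which understates change in low genes. The 42 members and all gene lists were chosen with earlier results of these data known. All members could be named; other lists gave the called gene with the largest change, plus GLK1, GLK2, CCA1, LHY, INO80 and ARP5. Sequences and gene models come from RefSeq, build TAIR10.1. Plastid-encoded genes were not analysed here. The fit was tested on simulated data. Alternatives were other pseudocounts, filters and scalings, voom weights, a replicate block, fewer groups, summed copies, a seed covariate and leaving out each library.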

Additional observations from a re-analysis of the deposited data

Results flagged for a closer look

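These results had effects that differed between long and short days in set 1, by limma's test of the difference itself; values are differences of log2 fold changes, SD minus LD. For ino80 over wild type 7 of 41 members passed (3.51% of all genes in that direction), with 0.61 for LHCA1 (adjusted p = 0.0218), 1.83 for LHCB4.3 (adjusted p = 0.000502), 0.38 for PSAE2 (adjusted p = 0.0379) and 0.40 for PSBX (adjusted p = 0.047) as the leaders of their classes. The count was 2 or 3 without any 1 of the 8 libraries, which ended the calls of LHCA1 (adjusted p = 0.0526 to 0.0724), PSAE2 (0.055 to 0.127) and PSBX (0.0644 to 0.159). For uch1/2 over wild type 1 member passed (4.71% of all genes), with 1.38 for LHCB4.3 (adjusted p = 0.00469). For INO80C over wild type 4 passed, 1 more positive (5.04% of all genes) and 3 more negative (7.33%), among them 1.3 for LHCB4.3 (adjusted p = 0.00538), -0.38 for PSAH1 (adjusted p = 0.0293) and -0.40 for PSBS (adjusted p = 0.0351). The uch1/2 and INO80C counts are at or below the shares over all genes.

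Set against ino80, the transgenic lines had 11 members passing for INO80FL (3.61% of all genes), with -0.66 for LHCA1 (adjusted p = 0.0136), -1.37 for LHCB4.3 (adjusted p = 0.00609), -0.47 for PSAK (adjusted p = 0.0325) and -0.47 for PSBW (adjusted p = 0.031). INO80N had 16 (3.51%), with -0.58 for LHCA1 (adjusted p = 0.028), -1.13 for LHCB1.4 (adjusted p = 0.00124), -0.57 for PSAE2 (adjusted p = 0.00273) and -0.52 for PSBW (adjusted p = 0.0182). INO80C had 29 (2.48%), with -0.66 for LHCA6 (adjusted p = 0.019), -0.94 for LHCB1.4 (adjusted p = 0.011), -0.65 for PSAE2 (adjusted p = 0.00279) and -0.71 for PSBQ2 (adjusted p = 0.00296). The INO80C count was as low as 4 without 1 library, and its LHCA6 call was lost without INO80C repeat 1 of LD (adjusted p = 0.102), INO80C repeat 2 of SD (0.0809), ino80 repeat 1 of LD (0.0637) or either ino80 library of SD (0.0541 and 0.0714). Age and day length cannot be told apart in these values.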

How the results depend on the processing

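Of 61 counts of called members, pseudocounts of 0.5 and 4 left 61 within 1.5 times and on the same side, no filter 60, the replicate block 59, summed copies 54, a mean of at least 10 51, voom weights 49, equal totals 45, only the groups compared 39 and quantile normalization 33. The median log2 fold change of the members in ino80 over wild type in LD was -0.69, and -0.54 with equal totals and -0.29 after quantile normalization. Of the 42 members, 35 rank among the top 200 genes of set 1, and quantile normalization makes the values at each rank alike between libraries by construction. Equal totals moved the median of all genes by up to 0.18 on the log2 scale. The replicate numbers share only a number: same-numbered libraries deviated together with correlations of -0.415 to 0.352 in set 1 (median 0.016, 17 of 72 pairs of groups over 0.1) and -0.19 to 0.454 in set 2 (median 0.27, 10 of 15 over 0.1), so not every pair passes 0.1, although set 2 leans positive. No read depth can be recovered from normalised counts, 2 libraries per group limit precision, and the cause of the shifts was not tested.

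The settings below can change the number of calls over all genes as well. Where no number over all genes stands beside a count, here or with libraries left out, the count describes the members only. Such a count was not set against the share over all genes under the same setting. After quantile normalization, the counts of called members were 0 for arp5 over wild type in LD, 19 for nfrkb1/2/3 over wild type in LD, 18 for uch1/2 over wild type in LD, 1 for atx4/5;jmj24 over wild type in LD, 6 for INO80N over wild type in LD and 23 for INO80C over ino80 in LD. Further such counts were 3 for INO80N over INO80C in LD (3 higher, 0 lower), 10 for ino80 over wild type in SD, 2 for arp5 over wild type in SD, 21 for nfrkb1/2/3 over wild type in SD, 14 for uch1/2 over wild type in SD and 13 for atx4/5;jmj24 over wild type in SD. The next were 6 for INO80N over wild type in SD, 12 for INO80C over wild type in SD, 9 for INO80FL over ino80 in SD, 4 for INO80N over ino80 in SD, 5 for INO80N over INO80C in SD and 4 for arp5 over ino80 in SD (3 higher, 1 lower). Others were 2 for nfrkb1/2/3 over ino80 in SD, 11 for the interaction of ino80, 1 for the interaction of nfrkb1/2/3, 7 for the interaction of uch1/2, 2 for the interaction of INO80C and 9 for the interaction of INO80C over ino80. Then came 21 for ino80 over wild type in SD of set 2, 17 for uch1/2 over wild type in SD of set 2, 1 for atx4/5;jmj24 over wild type in SD of set 2 and 6 for nfrkb1/2/3 over ino80 in SD of set 2. Over wild type in SD of set 1, this scaling left 4400 of 25638 genes higher and 3952 lower for ino80. Taken over both directions, members were called near or below the rate over all genes for ino80, uch1/2 (4667 and 4540), INO80C (4417 and 3851), arp5 (1588 and 1526) and INO80N (3025 and 2737). They were called above it for nfrkb1/2/3 (3976 and 3682) and atx4/5;jmj24 (3216 and 3121). With genes of a mean of at least 10, the counts of called members were 31 for arp5 over wild type in LD, 13 for atx4/5;jmj24 over wild type in LD, 3 for INO80N over INO80C in SD, 2 for arp5 over ino80 in SD, 2 for nfrkb1/2/3 over ino80 in SD and 5 for atx4/5;jmj24 over ino80 in SD. Further such counts were 16 for the interaction of ino80, 1 for the interaction of nfrkb1/2/3, 2 for the interaction of uch1/2 and 16 for atx4/5;jmj24 over wild type in SD of set 2. With equal library totals, the counts of called members were 6 for arp5 over wild type in LD, 8 for INO80N over wild type in LD, 5 for INO80N over INO80C in LD (3 higher, 2 lower), 19 for ino80 over wild type in SD, 15 for arp5 over wild type in SD and 17 for atx4/5;jmj24 over wild type in SD. Further such counts were 10 for INO80N over wild type in SD, 18 for INO80C over wild type in SD, 3 for INO80N over INO80C in SD, 2 for arp5 over ino80 in SD, 2 for nfrkb1/2/3 over ino80 in SD and 0 for uch1/2 over ino80 in SD. The next were 18 for the interaction of ino80, 6 for the interaction of uch1/2, 1 for the interaction of INO80C (1 higher, 0 lower) and 19 for the interaction of INO80FL over ino80. Equal totals gave 4391 genes higher and 2342 lower for INO80N over wild type in LD, and 5928 and 1928 in SD. Taken over both directions, the INO80N counts lay below the rate over all genes, and that of arp5 in LD (2932 and 817) near it. The directions differed, however. The members' median was -0.12 for INO80N in LD, -0.15 for INO80N in SD and -0.17 for arp5 in LD. Over all genes the medians were 0.07, 0.14 and 0.12 in that order. With voom weights, the counts of called members were 34 for arp5 over wild type in LD, 15 for atx4/5;jmj24 over wild type in LD, 3 for INO80N over INO80C in SD, 2 for arp5 over ino80 in SD, 2 for nfrkb1/2/3 over ino80 in SD and 5 for atx4/5;jmj24 over ino80 in SD. Further such counts were 15 for the interaction of ino80, 1 for the interaction of nfrkb1/2/3, 3 for the interaction of uch1/2, 17 for the interaction of INO80FL over ino80, 26 for the interaction of INO80N over ino80 and 24 for atx4/5;jmj24 over wild type in SD of set 2. With only the groups compared in the fit, the counts of called members were 7 for arp5 over wild type in LD, 0 for atx4/5;jmj24 over wild type in LD, 0 for INO80N over wild type in LD, 8 for INO80N over ino80 in LD, 0 for INO80N over INO80C in LD and 0 for nfrkb1/2/3 over ino80 in LD. Further such counts were 0 for uch1/2 over ino80 in LD, 4 for arp5 over ino80 in SD (3 higher, 1 lower), 6 for atx4/5;jmj24 over ino80 in SD, 29 for SD over LD in ino80, 19 for SD over LD in INO80FL and 21 for the interaction of ino80. The next were 1 for the interaction of nfrkb1/2/3, 2 for the interaction of INO80C, 2 for the interaction of INO80FL over ino80, 7 for the interaction of INO80N over ino80, 12 for uch1/2 over wild type in SD of set 2 and 0 for atx4/5;jmj24 over wild type in SD of set 2. Others were 1 for INO80FL over ino80 in SD of set 2 (0 higher, 1 lower), 4 for nfrkb1/2/3 over ino80 in SD of set 2, 0 for uch1/2 over ino80 in SD of set 2 and 4 for atx4/5;jmj24 over ino80 in SD of set 2. With the seed marker sum as covariate, chosen after seeing the data, the counts of called members were 7 for INO80N over wild type in LD, 10 for arp5 over wild type in SD, 15 for atx4/5;jmj24 over wild type in SD, 13 for ino80 over wild type in SD of set 2, 19 for uch1/2 over wild type in SD of set 2 and 0 for atx4/5;jmj24 over wild type in SD of set 2. With the LHCB1 and LHCB2 copies summed, the counts of called members were 1 for INO80C over wild type in LD, 1 for nfrkb1/2/3 over ino80 in LD, 1 for uch1/2 over ino80 in LD, 1 for INO80N over ino80 in SD, 0 for INO80N over INO80C in SD and 1 for atx4/5;jmj24 over ino80 in SD. Further such counts were 4 for atx4/5;jmj24 over ino80 in SD of set 2. In this fit the sums replace the single copies, so counts that held several copies fall by construction. With the replicate block, the counts of called members were 2 for INO80N over INO80C in SD and 2 for arp5 over ino80 in SD. With no filter on low values, the counts of called members were 0 for uch1/2 over ino80 in SD. Log2 fold changes that turned positive after quantile normalization were 0.0493 for LHCB1.1, ino80 over wild type in LD, 0.0986 for LHCB1.1, nfrkb1/2/3 over wild type in LD, 0.0986 for LHCB1.1, uch1/2 over wild type in LD and 0.0164 for LHCB1.2, uch1/2 over wild type in SD.

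With each library left out in turn, the lowest and highest counts were 1 to 5 for arp5 over wild type in LD, 1 to 3 for atx4/5;jmj24 over wild type in LD, 4 to 23 for INO80N over wild type in LD, 2 to 4 for INO80C over wild type in LD, 20 to 39 for INO80N over ino80 in LD and 1 to 5 for INO80N over INO80C in LD. The ranges were also 7 to 21 for arp5 over ino80 in LD, 0 to 2 for nfrkb1/2/3 over ino80 in LD, 0 for uch1/2 over ino80 in LD, 5 to 15 for arp5 over wild type in SD, 14 to 21 for atx4/5;jmj24 over wild type in SD and 0 to 1 for INO80FL over wild type in SD. Ranges were further 11 to 19 for INO80N over wild type in SD, 15 to 31 for INO80C over wild type in SD, 13 to 24 for INO80FL over ino80 in SD, 1 for INO80N over ino80 in SD, 0 to 1 for INO80C over ino80 in SD and 0 for INO80N over INO80C in SD. Next were 0 to 1 for arp5 over ino80 in SD, 0 to 1 for nfrkb1/2/3 over ino80 in SD, 0 for uch1/2 over ino80 in SD, 2 to 3 for the interaction of ino80, 0 to 1 for the interaction of nfrkb1/2/3 and 0 to 1 for the interaction of INO80N. Others ranged over 1 to 5 for the interaction of INO80C, 2 to 13 for the interaction of INO80FL over ino80, 7 to 22 for the interaction of INO80N over ino80, 4 to 23 for the interaction of INO80C over ino80, 18 to 24 for ino80 over wild type in SD of set 2 and 19 to 24 for uch1/2 over wild type in SD of set 2. Then came 0 to 2 for atx4/5;jmj24 over wild type in SD of set 2, 7 to 16 for INO80FL over ino80 in SD of set 2, 0 to 10 for nfrkb1/2/3 over ino80 in SD of set 2, 0 for uch1/2 over ino80 in SD of set 2 and 2 to 5 for atx4/5;jmj24 over ino80 in SD of set 2.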
